A study of Mus musculus with 6 samples.

Results

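AP-1 is a family of dimeric transcription factors that bind DNA through a basic region and a leucine zipper. The genes described here are 10 members and close relatives of the family: the FOS genes Fos, Fosb, Fosl1 and Fosl2, the JUN genes Jun, Junb and Jund, Atf3, and the small MAF genes Maff and Mafk. They were taken by symbol from a table of 22063 genes, and all 10 passed the filter on low counts that kept 12862 genes for testing. The family was chosen by measured values, the CRE against GFP differences of these same counts, so the CRE and GFP values of the members are given as a description, without p-values.

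The cells were cardiac fibroblasts from mice with both Tet3 alleles floxed (Tet3 f/f), an allele that Cre recombinase can excise. One group (GFP, genotype label Control) received an adenovirus coding for green fluorescent protein, and the other (CRE, genotype label Tet3 knockout) an adenovirus coding for Cre. Per the study's methods both viruses used the CMV promoter and carried a green fluorescent protein, so the groups differ in Cre itself as well as in Tet3, and these cannot be told apart here. Per the study, both groups were treated with TGF-β, the cytokine that activates fibroblasts, for a day. Untreated cells were not analysed here. Each group held 3 RNA-seq libraries. The study calls its replicates biological, but the age of the mice, and whether a replicate is an animal or a culture, were not found in the labels or methods, so the p-values below measure the spread between these libraries, whatever their source.

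Total gene counts lay between 17002126 and 20343590 per library. Tet3, the targeted gene, had 1044, 965 and 1000 counts in GFP and 642, 649 and 637 in CRE, a log2 fold change of -0.72 (SE 0.08, adjusted p = 5.36e-05, edgeR quasi-likelihood test). The Tet3 count covers the whole gene and not the floxed exons alone. Of the 8 fibroblast markers, 7 were lower in CRE, with a summed level of 28973 to 30122 CPM (counts scaled for library size and composition) in GFP and 17879 to 19279 CPM in CRE. Cells of other types were also looked for. Endothelial markers were lower for 10 of 12, at a summed 443 to 491 CPM in GFP and 223 to 254 CPM in CRE. Among 10 markers of smooth muscle or pericytes, 6 were lower and 1 higher. Macrophage markers summed to 32.0 to 35.1 CPM and 19.5 to 23.5 CPM. Of 8 cardiomyocyte markers 1 had enough counts to test, the natriuretic peptide gene Nppb, which fibroblasts can also express, and it had 2, 1 and 3 counts in GFP and 28, 21 and 13 in CRE. It passed the filter on low counts only through the CRE group, so no p is given. Tnnt2 had 7 to 10 counts in every library, Tnni3 3 to 5, and Myh7, Actn2, Ryr2 and Nppa at most 4. Myh6, the cardiac myosin gene, had no count in any library, which allows up to 0.176 CPM before composition scaling, counting error only. The part of these marker differences in the values below was not tested, and in bulk RNA fewer cells of a type cannot be told apart from less RNA per cell.

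A FOS protein needs a partner to bind DNA, usually a JUN protein, whereas JUN proteins also pair with each other. Fos, Fosb, Jun, Junb and Atf3 belong to the primary response genes, which are transcribed within minutes of serum, growth factor, stretch or stress and whose messenger RNAs are short-lived. ATF3 is a stress-induced partner of JUN proteins, and the small MAF proteins MAFF and MAFK, which lack an activation domain, pair with CNC proteins such as NRF2 or BACH1 on antioxidant response elements. In fibroblasts AP-1 is known for controlling collagenases and other matrix genes, and it acts beside SMAD proteins downstream of TGF-β.

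In GENCODE M21 (GRCm38) Jun (chr4:95049034-95052222), Junb (chr8:84974484-84978718) and Jund (chr8:70698949-70700616) each have a longest transcript of 1 exon, of 3189, 1809 and 1668 bases. Fos (chr12:85473890-85477273) and Atf3 (chr1:191170296-191218039) have 4 exons, and Maff (chr15:79346621-79359076) and Mafk (chr5:139791513-139802653) have 3. Fosb lies at chr7:19302696-19310051, Fosl1 at chr19:5447547-5455946 and Fosl2 at chr5:32135801-32157842, the last with the longest transcript of the family at 6537 bases. Counts cover all exons of a gene. Jun and Jund also have an antisense gene on the other strand (Junos and Gm11175) over 689 and 919 bases, which without a known strand setting cannot be told apart from them.

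The promoter windows of the members with the largest differences, and of Fosl2, which moved the other way, are shown together with the second Maff window, picked as the 1 member window with a full cAMP response element, because cAMP response and related elements near the start site are the classical feature of these genes. Sequences are those of RefSeq on GRCm38.p6, from 250 bases before to 50 bases after an annotated start, 5′ to 3′ on the gene's own strand. RefSeq windows were found for 9 of the 10 members, 11 windows in all because Maff has 3. Fosl1 had no entry. Capitals mark TGACG (read on either strand, so also as CGTCA; the core shared by cAMP response elements), the full palindrome TGACGTCA that contains it, the Jun promoter variant TGACATCA, and TATAAA on the gene's strand.
Fos, chr12:85473640-85473939, plus strand: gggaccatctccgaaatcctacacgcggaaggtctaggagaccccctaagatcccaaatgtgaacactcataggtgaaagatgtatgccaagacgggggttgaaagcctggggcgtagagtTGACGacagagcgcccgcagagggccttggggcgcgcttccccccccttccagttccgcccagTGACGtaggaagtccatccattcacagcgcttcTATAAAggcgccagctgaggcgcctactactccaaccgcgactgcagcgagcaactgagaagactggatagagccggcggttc
Fosb, chr7:19309996-19310295, minus strand: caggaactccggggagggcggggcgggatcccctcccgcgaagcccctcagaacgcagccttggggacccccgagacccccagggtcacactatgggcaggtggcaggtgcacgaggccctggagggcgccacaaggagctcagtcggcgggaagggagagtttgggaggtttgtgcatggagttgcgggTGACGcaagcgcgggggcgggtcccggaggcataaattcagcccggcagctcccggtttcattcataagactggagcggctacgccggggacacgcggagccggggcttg
Jun, chr4:95052173-95052472, minus strand: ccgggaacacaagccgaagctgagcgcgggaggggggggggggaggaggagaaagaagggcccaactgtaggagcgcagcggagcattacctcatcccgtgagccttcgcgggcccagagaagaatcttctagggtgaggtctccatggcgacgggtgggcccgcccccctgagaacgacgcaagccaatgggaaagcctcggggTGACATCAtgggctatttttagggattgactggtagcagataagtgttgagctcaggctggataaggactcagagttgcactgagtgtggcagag
Junb, chr8:84978699-84978998, minus strand: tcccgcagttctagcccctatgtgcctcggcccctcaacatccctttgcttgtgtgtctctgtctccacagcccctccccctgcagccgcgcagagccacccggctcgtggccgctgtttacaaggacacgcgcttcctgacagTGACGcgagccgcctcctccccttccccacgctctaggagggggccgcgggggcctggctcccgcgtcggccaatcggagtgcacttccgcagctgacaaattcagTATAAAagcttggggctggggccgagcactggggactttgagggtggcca
Atf3, chr1:191183284-191183583, minus strand: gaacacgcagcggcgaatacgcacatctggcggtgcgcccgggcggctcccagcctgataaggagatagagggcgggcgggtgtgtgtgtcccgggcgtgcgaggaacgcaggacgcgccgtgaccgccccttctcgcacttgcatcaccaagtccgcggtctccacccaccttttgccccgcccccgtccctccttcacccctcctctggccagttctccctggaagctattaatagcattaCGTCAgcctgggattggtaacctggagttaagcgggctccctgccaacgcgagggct
Fosl2, chr5:32136222-32136521, plus strand: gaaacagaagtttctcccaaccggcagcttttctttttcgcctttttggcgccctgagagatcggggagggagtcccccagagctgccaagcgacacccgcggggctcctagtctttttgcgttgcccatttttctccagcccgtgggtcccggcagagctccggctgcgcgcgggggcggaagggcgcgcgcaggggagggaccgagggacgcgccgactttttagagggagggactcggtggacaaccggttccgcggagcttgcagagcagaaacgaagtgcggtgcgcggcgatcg
Maff, second window, chr15:79347270-79347569, plus strand: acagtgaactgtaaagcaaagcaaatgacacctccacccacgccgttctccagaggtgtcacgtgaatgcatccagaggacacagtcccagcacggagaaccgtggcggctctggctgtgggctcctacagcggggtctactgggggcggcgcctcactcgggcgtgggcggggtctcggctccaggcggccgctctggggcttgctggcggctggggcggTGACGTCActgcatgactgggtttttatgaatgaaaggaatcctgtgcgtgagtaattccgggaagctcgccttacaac

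Counted from the RefSeq start, the first base of TGACG stood at -129 and -66 in Fos, at -60 in Fosb and at -106 in Junb, and that of CGTCA at -7 in Atf3. TATAAA began at -33 in Fos. The Jun window held TGACATCA at -45 and the second Maff window TGACGTCA at -29. TGACG was present in 7 of the 11 member windows, which belong to 6 members, against 20.8% of 32851 RefSeq windows of the same length. TGACG holds a CG, and the windows compared were not matched for their CG content, which is given below. The AP-1 site TGANTCA, searched in the same way, was in 0 of the 11 windows and in 7.81% of all windows, and the CArG box, the SRF site, in 0 of 11 and in 1.63%. Sites more than 250 bases upstream of the start lie outside the windows and were not searched, so the genes may still carry them there. The letters other than TGANTCA, the CArG box and TGACGTCA were chosen after the windows had been read, so the 7 of 11 is a description and not a test. The Fosl2, Jund and first Maff windows held none of the letters searched. The Fosl2 RefSeq start lies 671 bases inside the gene as annotated in GENCODE M21, so this depends on the start used.

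**Figure D1:**
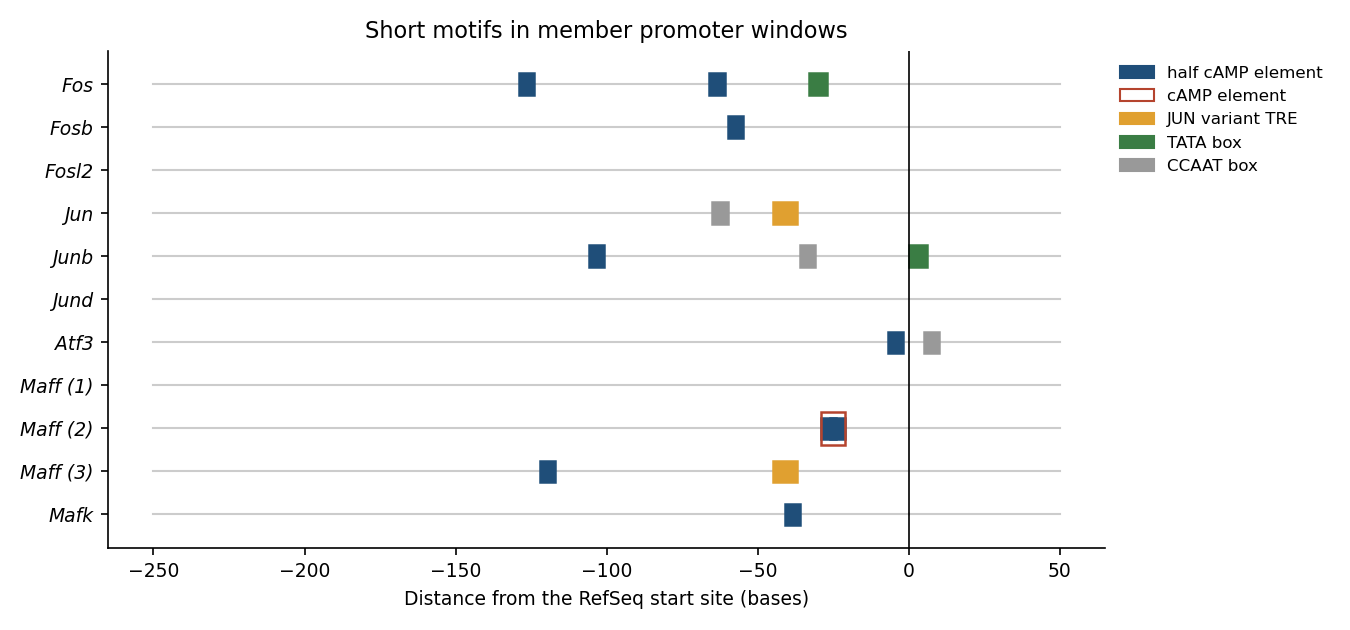
Positions of the short motifs in the 11 promoter windows of 9 members, with the distance from the RefSeq start site in bases on the horizontal axis and 1 line per window. Blue blocks are TGACG on either strand, the red outline TGACGTCA, orange TGACATCA, green TATAAA and grey CCAAT. Fos carries 2 blue blocks and Fosl2, Jund and the first Maff window carry no block.

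The windows also differed in CpG content, the dinucleotide that TET enzymes act on when it is methylated. The Fosl2 window held 32 CpG, Mafk 31, Atf3 27, Fosb 25, Junb 21, Fos 20, Jun 15 and the 3 Maff windows 5, 21 and 14, against a median of 7 over all windows, and Jund, whose RefSeq start lies 1210 bases upstream of the start in the gene annotation (GENCODE M21), held 3. Of all windows, 65.4% held fewer CpG than that of Jun, 73.5% fewer than that of Fos, 75.2% fewer than that of Junb and 90.5% fewer than that of Fosl2. The Atf3 window lies inside the annotated gene, 34706 bases away from its outermost start. Methylation was not measured here.

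FOS genes. Fos, the founding FOS gene, had 46, 45 and 42 counts in GFP and 119, 112 and 106 in CRE. Every CRE library lay above every GFP library. The mean was 2.53 ± 0.34 CPM in GFP and 6.06 ± 0.42 CPM in CRE (SD, n = 3 each, as for all means below), a 2.40-fold difference and a log2 fold change of 1.27 (SE 0.16).

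Fosb, which also encodes the truncated, stable form ΔFOSB, was low in GFP, with 7, 21 and 15 counts, and had 148, 138 and 89 counts in CRE. All CRE libraries lay far above the GFP libraries, and the GFP libraries themselves spread widely. Means were 0.80 ± 0.38 CPM and 6.76 ± 1.80 CPM, an 8.46-fold difference and the highest log2 fold change of the family at 3.05 (SE 0.31). Because 1 GFP library had under 10 counts, Fosb dropped out of a filter that required 10 counts in every library, and on log2(FPKM + 1), which compresses low values, its log2 fold change was 1.44.

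Fosl1, which encodes FRA-1, had 147, 168 and 150 counts in GFP and 217, 278 and 205 in CRE. The groups did not overlap, though CRE replicate 2 stood above the other CRE libraries. Means were 8.80 ± 0.89 CPM and 12.6 ± 2.43 CPM, with a log2 fold change of 0.52 (SE 0.14), which was 0.36 without CRE replicate 2 and 0.44 without GFP replicate 3, the fit in which Fosl1 no longer passed the threshold. Fosl1 overlaps Ccdc85b on the other strand over 2767 bases. Ccdc85b held 144 to 155 counts in GFP and 173 to 208 in CRE, and since the strand setting of the counting is not stated, reads of the shared stretch cannot be assigned with certainty.

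Fosl2, which encodes FRA-2, went the other way. It had 3744, 4432 and 4746 counts in GFP and 2733, 2716 and 2954 in CRE. No CRE library reached the lowest GFP level in CPM. Means were 243.1 ± 9.05 CPM and 151.1 ± 4.60 CPM, so the CRE level was 62.2% of the GFP level, a log2 fold change of -0.69 (SE 0.05). Leaving out each library in turn kept it between -0.72 and -0.66.

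JUN genes. Jun, the founding JUN gene, had 580, 626 and 677 counts in GFP and 1109, 1168 and 1106 in CRE. The groups did not overlap and the GFP libraries were nearly equal after scaling, at 35.5 ± 0.48 CPM against 60.9 ± 3.34 CPM in CRE. The difference was 1.71-fold, a log2 fold change of 0.78 (SE 0.06).

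Junb, which can hold JUN in check at some promoters, was the most abundant JUN gene per length and went from 1178, 1126 and 1352 counts in GFP to 2876, 2404 and 2687 in CRE. All CRE libraries were above all GFP libraries, at 143.2 ± 10.7 CPM against 69.0 ± 5.01 CPM. The difference was 2.08-fold, a log2 fold change of 1.05 (SE 0.07). Junb shares 351 bases with Prdx2 on the other strand, an abundant gene whose own level was slightly lower in CRE, at 152.9 ± 4.18 CPM against 169.6 ± 8.05 CPM.

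Jund, the most constantly expressed JUN gene in many tissues, had 735, 787 and 925 counts in GFP and 861, 837 and 832 in CRE, and its groups overlapped. Means were 46.0 ± 1.87 CPM and 45.5 ± 1.37 CPM, with a log2 fold change of -0.02 (SE 0.05) that turned to 0.145 with library size alone and to 0.141 on log2(FPKM + 1). It was the 1 member of 10 that did not pass the threshold, though it passed as higher under both of these scalings.

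ATF3 and small MAF genes. Atf3 had 46, 46 and 51 counts in GFP and 205, 206 and 191 in CRE, and both groups were tight. Its level went from 2.70 ± 0.14 CPM to 10.8 ± 0.68 CPM, a 4.01-fold difference and a log2 fold change of 2.003 (SE 0.12). Fosb alone in the family had a higher log2 fold change, but on log2(FPKM + 1) the order turned, with Atf3 at 1.565 and Fosb at 1.44.

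Maff had 712, 681 and 726 counts in GFP and 955, 860 and 878 in CRE. Mafk had 1018, 1243 and 1260 counts in GFP and 1586, 1398 and 1400 in CRE. In CPM the CRE libraries lay above the GFP libraries for both genes, but the differences were the smallest among the members that passed. Maff went from 40.1 ± 3.60 to 48.4 ± 2.57 CPM, a log2 fold change of 0.27 (SE 0.07), and Mafk from 66.3 ± 3.46 to 78.9 ± 5.78 CPM, a log2 fold change of 0.25 (SE 0.06).

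**Figure D2:**
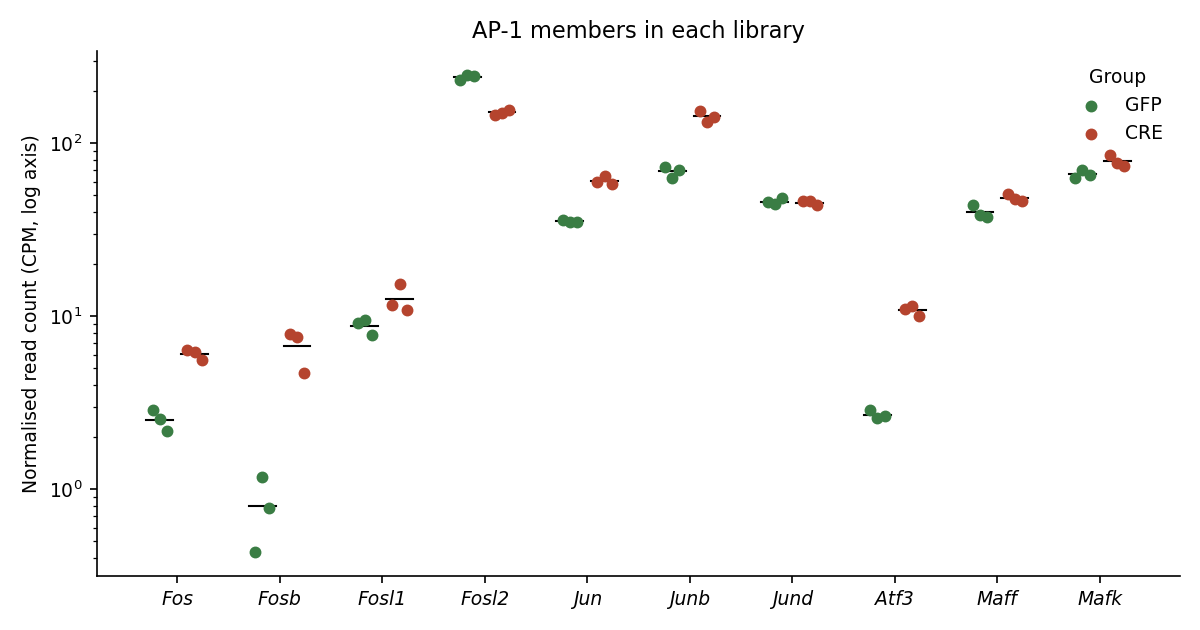
Normalised read counts (CPM, log axis) of the 10 members in each library, with 3 points per group. Fos, Fosb, Fosl1, Jun, Junb, Atf3, Maff and Mafk have their CRE points above their GFP points, Fosl2 has them below, and those of Jund overlap.

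Of the 10 members, 8 were higher in CRE at an adjusted p under 0.05 (edgeR quasi-likelihood test, Benjamini-Hochberg over all tested genes), 1 was lower and 1 did not pass. Over all 12862 tested genes 25.5% were higher, 25.7% lower and 51.2% changed in either direction. With library size alone, which shifts the median of all genes upward, 5529 genes were higher and 2083 lower, against 3277 and 3306 with composition scaling. In 9 members the groups did not overlap, against 59.6% of all tested genes. These counts follow from how the family was chosen, and Fosb, with fewer than 10 counts in 1 GFP library, passed the filter on low counts only through the CRE group. The median log2 fold change was 0.65 over the members and 0.0052 over all tested genes, and the summed level of the members went from 511 to 517 CPM in GFP to 552 to 581 CPM in CRE.

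Since the members differ in length, their levels were compared with each other in the deposited FPKM values, which are per kilobase of transcript. In GFP the order was Junb 36.0 ± 2.59, Fosl2 35.1 ± 1.35, Jund 26.1 ± 1.08, Mafk 21.9 ± 1.15, Maff 19.7 ± 1.86, Jun 10.5 ± 0.13, Fosl1 4.46 ± 0.44, Atf3 1.29 ± 0.07, Fos 1.13 ± 0.15 and Fosb 0.25 ± 0.14 FPKM. The ranges of Junb and Fosl2, of Mafk and Maff, and of Atf3 and Fos overlapped in that group, so their order is not settled. In CRE the order was Junb 83.7 ± 5.87, Mafk 29.1 ± 1.99, Jund 28.9 ± 0.87, Maff 26.4 ± 1.31, Fosl2 24.4 ± 0.81, Jun 20.2 ± 1.18, Fosl1 7.17 ± 1.41, Atf3 5.77 ± 0.37, Fos 3.04 ± 0.20 and Fosb 2.40 ± 0.50 FPKM. Here the ranges of Mafk and Jund, Mafk and Maff, Maff and Fosl2, and Fos and Fosb overlapped. Fosl2 thus went from sharing the first place with Junb to a place below Junb, Mafk, Jund and Maff, the last of which it overlapped.

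The make-up of the FOS and JUN subfamilies shifted accordingly. Fosl2 supplied 85.7 ± 1.36% of the summed FOS FPKM in GFP and 66.0 ± 3.61% in CRE. The share of Fosl1 went from 10.9 ± 1.05% to 19.3 ± 2.93%, that of Fos from 2.77 ± 0.43% to 8.21 ± 0.53% and that of Fosb from 0.61 ± 0.33% to 6.48 ± 1.34%. Fosl2 remained the most abundant FOS transcript in every library. Among the JUN genes Junb went from 49.6 ± 1.46% to 63.0 ± 2.24% and Jund from 35.9 ± 1.15% to 21.8 ± 0.95%, while the share of Jun was 14.5 ± 0.63% in GFP and 15.2 ± 1.29% in CRE. Maff and Mafk kept near-equal shares, with Maff at 47.3 ± 3.34% and 47.6 ± 0.48%.

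Summed FOS transcripts amounted to 41.0 ± 1.43 FPKM in GFP and 37.0 ± 1.57 FPKM in CRE, whereas summed JUN transcripts went from 72.6 ± 3.36 to 132.7 ± 5.19 FPKM and those of Maff and Mafk from 41.5 ± 1.34 to 55.6 ± 3.29 FPKM. The ratio of FOS to JUN transcripts was 0.565 ± 0.046 in GFP, from 0.530 to 0.617, and 0.280 ± 0.020 in CRE, from 0.261 to 0.301. Although 3 of the 4 FOS genes were higher in CRE, the abundant one was lower, and the sum followed it. Ratios within a library do not depend on its scaling, but the sums do, since FPKM corrects for library size and not for composition.

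**Figure D3:**
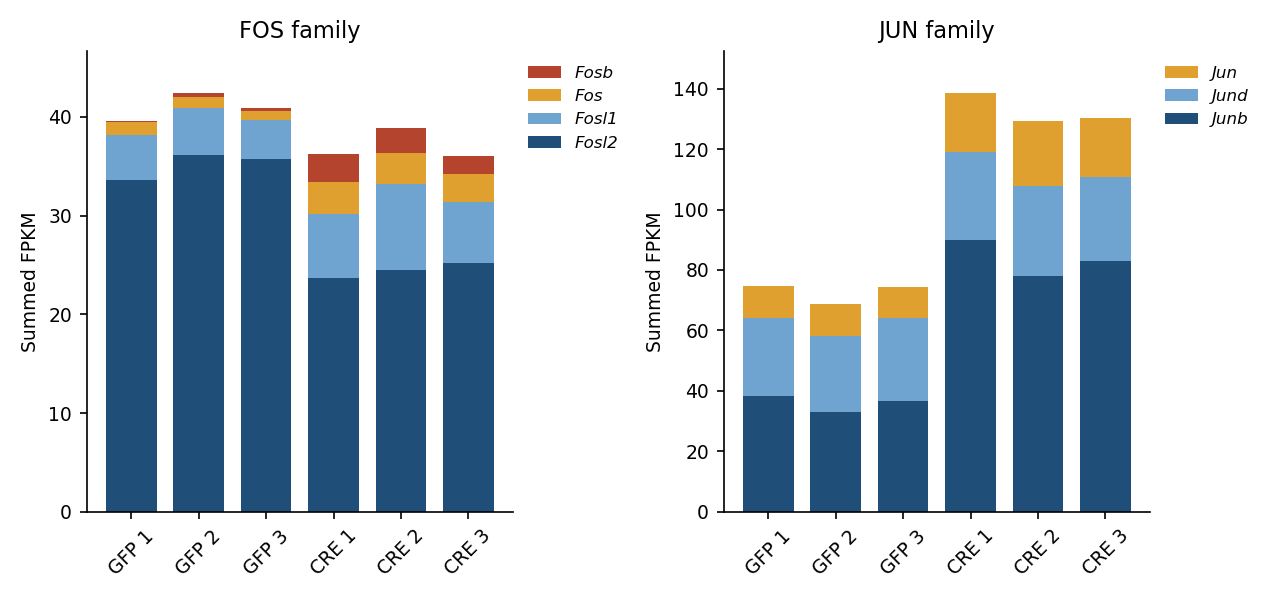
Stacked bars of deposited FPKM per library for the FOS and JUN genes, 1 panel per subfamily and 1 bar per library, each starting at 0. Fosl2 fills 84.8 to 87.3% of the FOS bars in GFP and 62.9 to 70.0% in CRE, and Junb 48.2 to 51.1% of the JUN bars in GFP and 60.5 to 64.8% in CRE.

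The counts and FPKM of a gene imply the transcript length that the FPKM used, which depends on the isoforms counted. For 0 of the 10 members did the implied length separate the groups (no test is given, since 3 against 3 cannot reach the threshold: the smallest exact permutation p is 0.1), while 14.5% of 12141 genes with at least 10 counts in every library had groups apart. Without GFP replicate 1 the count of separated members was 3, against 24.7% of all those genes, and it was 2 without GFP replicate 2 (24.8%) or without CRE replicate 2 (24.4%). The implied length of Fosb ranged most, between 2675 and 3767 bases. Jun and Jund have 1 annotated transcript each, and their implied lengths moved only by rounding, for Jun between 3188.9 and 3189.1 bases. Those of Junb (1808.98 to 1809.01) and Fosl2 (6536.96 to 6537.09) were as constant. For these members an overlap or a separation says nothing about isoforms, and Jun was among the 3 separated without GFP replicate 1.

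Over the 6 libraries the members were also matched by the root mean square difference of log2 CPM centred on the GFP mean. Maff and Mafk were each other's nearest member at 0.11, and so were Fos and Junb at 0.18. Jun was nearest to Junb at 0.23 and Fosl1 to Jun at 0.23. Fosl2, Atf3 and Fosb had no close match in the family, their nearest members being Jund at 0.48, Fos at 0.52 and Atf3 at 0.84. When all genes averaging 10 CPM or more were searched, Fosb was nearest to Il11 (0.48), Egr1 (0.54) and Sema7a (0.72), none of them close, and Fosl2 to Dnpep (0.03), Eid1 (0.03) and Plvap (0.03). Each distance rests on the same 6 libraries and on the difference between the groups above all.

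The remaining AP-1 and MAF family genes were examined as a list. Of 11 listed, 7 were tested, 1 was higher, 3 were lower and 3 did not pass, with a median log2 fold change of -0.23. The 1 higher call was lost without CRE replicate 2. Mafg, the third small MAF gene, was lower, at 81.9 ± 5.55 CPM in GFP and 63.6 ± 3.84 CPM in CRE, a log2 fold change of -0.36 (SE 0.06, adjusted p = 0.000821). It passed in each of the 15 alternative fits. Atf7 (-0.40, SE 0.05, adjusted p = 8.39e-05) and Atf2 (-0.21, SE 0.05, adjusted p = 0.00576), both JUN partners that bind cAMP response elements, were lower too, but neither passed in the limma fits on log2 FPKM, and Atf2 did not with library size alone. Jdp2, a repressive JUN partner, had a log2 fold change of -0.05 (SE 0.07) that was 0.12 with library size alone. Batf had -0.42 (SE 0.32) and Maf -0.23 (SE 0.13), and neither passed. Batf2, Batf3 and Mafa had too few counts to test, and Nrl had none in any library.

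**Figure D4:**
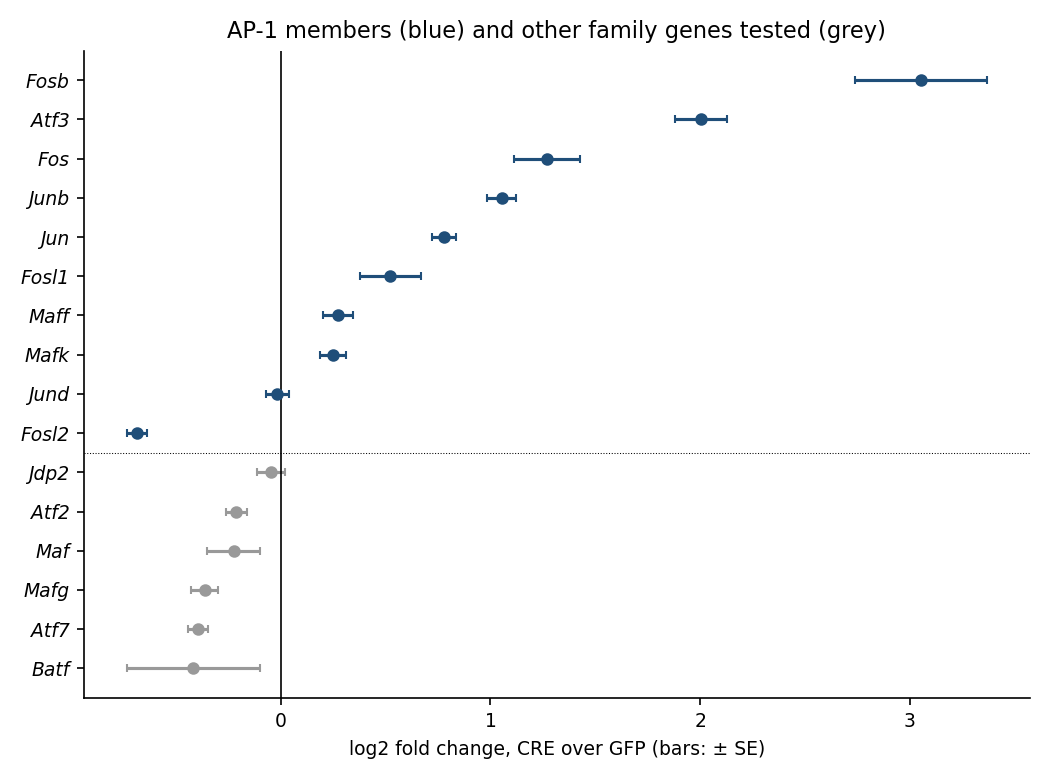
Log2 fold changes of CRE over GFP with bars of ± SE for the 10 members (blue) and 6 other family genes tested (grey). Fosb (3.05), Atf3 (2.003) and Fos (1.27) lie farthest to the right, Fosl2 (-0.69) farthest to the left, and Mafg (-0.36) lies opposite to its relatives Maff (0.27) and Mafk (0.25).

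Fos, Fosb, Junb and Egr1 are classical targets of the serum response factor SRF and its partners. Among 6 genes for SRF, its ternary complex partners and the MRTF coactivators, 2 were higher, 1 was lower and 3 did not pass, and Srf itself was at 27.4 ± 3.62 CPM in GFP and 28.1 ± 1.54 CPM in CRE. Mrtfa, an actin-regulated SRF coactivator, was higher with a log2 fold change of 0.44 (SE 0.06, adjusted p = 0.000135). Elk3 was higher by 0.15 (SE 0.05, adjusted p = 0.0240), a call lost without CRE replicate 2 (adjusted p = 0.0886), without GFP replicate 2 (0.0801) or without GFP replicate 3 (0.0594). Elk1 was lower, at a log2 fold change of -0.39 (SE 0.09, adjusted p = 0.00461), but not past the threshold with library size alone (adjusted p = 0.0509) or on the FPKM scales (0.0934 and 0.0978).

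The MAP kinases phosphorylate the JUN, FOS and ternary complex proteins. Of 22 cascade genes listed, 21 were tested, 5 were higher, 2 lower and 14 did not pass, with a median of 0.06. With library size alone 14 were higher and 2 lower, and on both log2 FPKM scales 10 were higher and 2 lower, so the number of higher genes depends on the scaling. On the p38 branch Map2k3 went from 74.7 ± 1.71 to 113 ± 6.97 CPM (log2 fold change 0.60, SE 0.05, adjusted p = 1.08e-05) and Mapk14, p38α, from 75.6 ± 3.43 to 103 ± 3.03 CPM (0.45, SE 0.05, adjusted p = 4.33e-05). Map3k1, which feeds the JNK branch, was higher by 0.63 (SE 0.15, adjusted p = 0.00599). Named after their values were seen, Map2k4 (0.20, SE 0.04) and Mapk9, JNK2 (0.26, SE 0.05), of that branch were higher too. On the p38 branch Map2k6 (0.44, SE 0.22), Mapk11 (-0.25, SE 0.12), Mapk12 (-0.40, SE 0.16) and Mapk13 (0.02, SE 0.16) did not pass. Mapk3, ERK1, was lower at -0.41 (SE 0.06, adjusted p = 0.000219), and Mapk8, JNK1, had 0.08 (SE 0.07) without passing, and passed at 0.24 with library size alone. These are transcript levels, and the phosphorylation of the kinases was not measured.

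FOS and JUN messenger RNAs are destroyed through AU-rich elements in their tails, and the proteins through ubiquitin ligases. Of 10 genes for this turnover, 3 were higher, 5 were lower and 2 did not pass, whereas 5 were higher and 4 lower with library size alone. The 3 higher became 1 without GFP replicate 3 or without CRE replicate 1, where Zfp36 and Elavl1 missed the threshold. All 4 with the largest changes are RNA-binding proteins that promote decay of AU-rich messages, and all were lower. Zfp36l1 went from 153 ± 19.7 to 62.0 ± 5.99 CPM (log2 fold change -1.30, SE 0.10, adjusted p = 3.19e-06). Hnrnpd, which encodes AUF1, was at -0.77 (SE 0.05, adjusted p = 1.44e-06), Zfp36l2 at -0.71 (SE 0.08, adjusted p = 5.42e-05) and Khsrp at -0.49 (SE 0.06, adjusted p = 0.000102), and all 4 passed in each of the 15 alternative fits. Zfp36 itself, which encodes tristetraprolin, is a primary response gene as well, and its log2 fold change was 0.29 (SE 0.08, adjusted p = 0.0134). Zfp36 was named after its values were seen, and it lost its call without CRE replicate 1 (adjusted p = 0.0537) or without GFP replicate 3 (0.0506).

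Known AP-1 target genes moved in both directions. Of 24 listed, 23 were tested, 8 were higher, 10 lower and 5 did not pass, with a median log2 fold change of -0.20, and with library size alone or on log2 FPKM 9 were higher and 8 lower. Mmp13, the collagenase whose promoter carries a classical AP-1 site, went from 227, 221 and 291 counts in GFP to 30, 44 and 44 in CRE, a log2 fold change of -2.71 (SE 0.16, adjusted p = 7.95e-07). Mmp12, macrophage elastase, was lower by a similar order, at -1.78 (SE 0.13, adjusted p = 3.12e-06). Il6 went from 363 ± 134 to 104 ± 10.9 CPM (-1.80, SE 0.23, adjusted p = 0.000112), with GFP replicate 1 at 3444 counts against 8395 and 7706 in the other GFP libraries.

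Il11, a cytokine that fibroblasts make in response to TGF-β, was higher, with 102, 180 and 139 counts in GFP and 764, 938 and 596 in CRE (log2 fold change 2.39, SE 0.20, adjusted p = 7.61e-06). Ccnd1, cyclin D1, which was named after its values were seen, went from 17.1 ± 1.11 to 50.7 ± 2.35 CPM (1.57, SE 0.07, adjusted p = 2.40e-07). Timp1, the inhibitor of collagenases, and Cd44 did not pass.

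The partners and targets of the small MAF proteins did not move as one. Of 6 CNC genes, 4 were tested, with 1 higher and 1 lower, against 3 higher and 1 lower with library size alone and 1 higher on log2 FPKM. Nfe2l2, which encodes NRF2, was at 260 ± 22.2 CPM in GFP and 270 ± 21.8 CPM in CRE and did not pass (log2 fold change 0.05, SE 0.07), but passed at 0.21 with library size alone. Bach1, a repressor that pairs with small MAF, was lower (log2 fold change -0.37, SE 0.06, adjusted p = 0.000656), though not in the FPKM fits, where its adjusted p was 0.0520 and 0.0549. Bach2, at low counts, was higher by 0.83 (SE 0.25, adjusted p = 0.0194), a call lost without CRE replicate 2 (0.0815) or GFP replicate 2 (0.0655) and on the log2 FPKM scales (0.0613 and 0.0864). Of 8 antioxidant response genes 1 was higher, 3 were lower and 4 did not pass, and with library size alone 3 were higher and 2 lower, so the balance of directions depends on the scaling. Slc7a11, the cystine transporter, was lower at -0.97 (SE 0.10, adjusted p = 2.94e-05) and Gclm, of glutathione synthesis, at -0.56 (SE 0.05, adjusted p = 1.81e-05), whereas Srxn1, sulfiredoxin, was higher at 0.41 (SE 0.06, adjusted p = 0.000232). Hmox1, heme oxygenase, had -0.18 (SE 0.06, adjusted p = 0.0309), a call lost with library size alone (-0.02), on both log2 FPKM scales (-0.02) and without GFP replicate 2 or 3 or CRE replicate 1 or 2 (adjusted p from 0.0516 to 0.131).

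The other primary response genes, which share their kinetics with Fos and Junb, were higher for 15 of 18 and not past the threshold for 3, with a median of 1.07, and 18 were higher with library size alone or on log2 FPKM, 14 with DESeq2 or without any 1 CRE library, and 12 without GFP replicate 3, where Klf4, Nr4a1 and Nr4a2 missed the threshold. Egr1 had 298, 361 and 380 counts in GFP and 2048, 1914 and 1845 in CRE (log2 fold change 2.42, SE 0.06, adjusted p = 1.33e-08). Egr3 was at 2.09 (SE 0.21, adjusted p = 2.02e-05), Klf2, a stretch- and flow-responsive factor, at 1.82 (SE 0.13, adjusted p = 3.13e-06) and Dusp5, a phosphatase that inactivates ERK, at 1.80 (SE 0.18, adjusted p = 1.97e-05). Myc and Klf6 had 0.05 (SE 0.08) and 0.03 (SE 0.05) without passing, and passed at 0.22 and 0.19 with library size alone. Both groups had been treated alike with TGF-β, so these are levels after the treatment and not the size of a response to it.

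**Figure D5:**
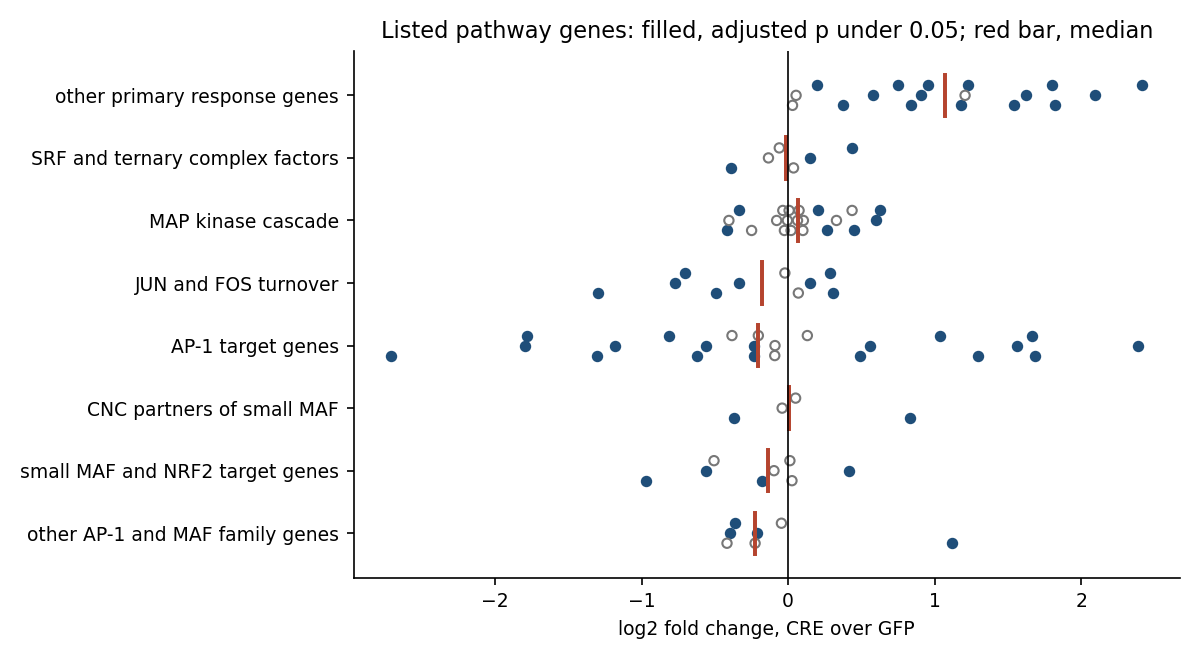
Log2 fold changes of CRE over GFP for the listed genes, 1 row per list, with filled points for an adjusted p under 0.05 and a red bar at each list's median. The other primary response genes have a median of 1.07 with 15 of 18 higher, the AP-1 targets spread on both sides of 0 from Mmp13 (-2.71) to Il11 (2.39), and the turnover genes have 5 of 10 lower.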

How the data were processed

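The 6 RNA-seq libraries of cardiac fibroblasts were grouped by their titles. Per the study's methods, reads were trimmed with Trimmomatic and aligned to GRCm38 with HISAT2. The authors deposited 1 table with raw counts per gene (HTSeq-count, not normalized) and FPKM values (Cufflinks, scaled to transcript length and fragment number) per library. Tool versions and the strand setting are not given in the sources used here, and labels and methods name different extraction and library kits. The table's group means, which the authors computed from FPKM, its log2 fold changes, which the authors took from those means, and the p-values and false discovery rates deposited with them were not used.

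In edgeR 4.0.16 under R 4.3.3, genes passing filterByExpr (minimum count 10, total 15) were scaled by TMM and tested by the two-sided quasi-likelihood test. The SE is the absolute log2 fold change over the square root of F. Within-group correlations of log2 CPM were at least 0.989, and no replicate pair agreed within counting noise, so each library counted once. Alternatives were RLE factors, library size alone, upper quartile, a filter of 1 count in total or of 10 counts in every library, DESeq2 1.42.0, limma 3.58.1 on log2(FPKM + 1) and log2(FPKM + 0.1), a replicate block, and each library left out. The edgeR script was first tested on simulated data.

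The members, lists and motifs were chosen with earlier results of these data known. All members were named. Of each list, all genes past the threshold could be named if 6 or fewer, otherwise the 4 with the largest change, and 1 or 2 that did not pass. Coordinates come from GENCODE M21. Sequences were read from RefSeq promoter windows with Python 3.11.15, and figures drawn with matplotlib 3.10.9. Some results are not reported here.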

Additional observations from a re-analysis of the deposited data

How the results depend on the processing

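In the 15 alternative fits 8 or 9 members were higher, except for 7 where Fosb was not tested (10 counts in every library) or Fosl1 missed the threshold (without GFP replicate 3), and 1 was lower. Library size alone put the median of all genes at 0.167 on the log2 scale, with 5529 genes higher and 2083 lower (72.6% higher), and 72.2% were higher on log2(FPKM + 1), so that members higher became 9 in both. Jund turned positive under library size alone (0.145), upper quartile (0.0019), log2(FPKM + 1) (0.1407) and log2(FPKM + 0.1) (0.1453), and lay between -0.0459 and 0.0142 with each library left out. The other AP-1 and MAF genes called were 2 on both FPKM scales instead of 4, and members with separated implied lengths ranged from 0 to 3 with each library left out. With library size alone the SRF, MAP kinase and turnover genes had 21 higher and 6 lower instead of 10 and 8, and the small MAF partners and targets 6 and 3 instead of 2 and 4. The causes were not tested. The log2 fold changes of the other 9 members kept their direction in every fit.

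With the replicate number as a block 6633 genes were called instead of 6583, and 9 members as before. The numbers were not used to pair libraries, since same-numbered libraries correlated at 0.046, 0.180 and -0.018, and 2 of 6 libraries correlated best with their own number. Depth limits Fosb most, with 7 to 21 counts in GFP.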

Other observations

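The other genes that carry a bZIP domain in the table's own classification, a list added after values had been seen, moved in both directions. Of 43 genes 35 were tested, 7 were higher, 14 lower and 14 did not pass, with a median log2 fold change of -0.19. With library size alone 12 were higher and 13 lower, and without CRE replicate 2 the higher genes were 4. The list includes the other AP-1, MAF and CNC genes described above. Cebpd and Cebpb, C/EBP factors that act with AP-1 on inflammatory genes such as Il6, were lower at -1.10 (SE 0.06, adjusted p = 5.46e-07, edgeR) and -0.74 (SE 0.09, adjusted p = 9.71e-05). Creb3l1, a membrane-bound factor that drives collagen secretion genes, was at -1.02 (SE 0.05, adjusted p = 2.53e-07), and Creb3l3 was lower too, at -1.43 (SE 0.18, adjusted p = 0.000110). In the opposite direction Ddit3, which encodes the stress factor CHOP, was at 0.66 (SE 0.13, adjusted p = 0.00161), while Atf4, which acts upstream of it, was at -0.41 (SE 0.05, adjusted p = 0.000138). These genes were named after their values were seen.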
